A study of Danio rerio with 17 samples.

Results

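The vegetal side of the zebrafish (Danio rerio) oocyte was compared with the animal side by pooling the libraries of neighbouring segments. RNA had been sequenced from frozen sections of 4 oocytes, each divided along its animal-vegetal axis into segments that the labels name A to E, with A animal and E vegetal. Libraries labelled D or E (6 libraries, 3 of each segment) formed the vegetal side, and libraries labelled A or B (7 libraries, 4 of A and 3 of B) formed the animal side. The comparison thus used 13 of the 17 libraries in all, and the 4 libraries of segment C, at the equator, were left out of it and served only to show levels between the sides. No group had a treatment or a genetic change in the labels, which give neither the stage and strain of the oocytes nor the female each one came from. Both sides were sampled in every oocyte, but the vegetal side of oocyte 2 was represented by segment D alone, that of oocyte 4 by segment E alone, and the animal side of oocyte 3 by segment A alone. Pooling 2 segments on each side gives larger groups than a comparison of single segments, so that moderate differences and whole classes of genes can be examined.

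The animal-vegetal axis of the fish oocyte is laid down early in oogenesis, when the Balbiani body, an assembly of mitochondria and RNA, marks the vegetal side. Germ plasm RNAs, which direct the formation of germ cells, and dorsal determinants, which set up the dorsal organizer through beta-catenin, are stored at the vegetal cortex. The nucleus lies on the animal side of the grown oocyte, where the blastodisc forms, meiosis is completed and the embryo later divides. Most transcripts of the oocyte are stored untranslated and are used by the embryo before its own genome is switched on.

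The libraries held 4054233 to 23672322 reads in genes, with the lowest numbers in oocyte 1. Spike-in RNA took at most 0.00239% of the reads in oocyte 1, whereas oocytes 2 to 4 had 0.185% to 0.802% in a library. The labels name no batch, the test has no term for oocyte 1, and counts of genes are also given without it. Since the RNA input was the same for each library, a level is a share of the RNA of a segment. More molecules of 1 transcript and fewer of all others cannot be told apart. Levels are given in CPM, a gene's reads relative to the TMM-scaled size of its library. Oocyte markers had summed levels of 1870 to 2420 CPM in the animal and 1990 to 3450 CPM in the vegetal libraries over 10 genes, of which 9 were tested. Most of the sum was buc (means of 1640 and 1520 CPM), zp2.1 was at 1.58 and 1.11 CPM, and dazl (4.04 and 477 CPM) was called between the sides. Of 15 entries for follicle cell markers, 8 had 0 reads in all 13 libraries (star, amh, fshr, nr5a2, hsd3b1, col1a1a, col1a2 and 1 of the 2 entries named cyp11a1). Their summed level was 138 to 407 CPM in the animal and 189 to 354 CPM on the vegetal side, with the most reads in the other cyp11a1 entry, and the smallest edgeR adjusted p of the 5 tested was 0.998. Of 9 entries for blood cell markers, 8 had 0 reads, none was tested, and the summed level reached 15.1 CPM in the animal and 17.2 CPM on the vegetal side. The part of follicle and blood cell RNA in the results was not tested.

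Between the sides, 257 of 10118 genes tested (2.54%) had a Benjamini-Hochberg adjusted p under 0.05 with edgeR, and such genes are referred to as called. Of these, 106 (1.05%) were higher and 151 (1.49%) were lower on the vegetal side. Before adjustment 799 genes had a p under 0.05. Genes called higher on the vegetal side had a median log2 difference of 1.73, and 43 of them differed by over 4-fold, 50 by 2-fold to 4-fold and 13 by less than 2-fold. The median size was 1.49 for genes called lower, with 52 over 4-fold, 66 between 2-fold and 4-fold and 33 under 2-fold. The smallest differences called were 0.68 for a higher and 0.64 for a lower gene on the log2 scale. All 6 vegetal libraries lay above all 7 animal libraries for 67 of all genes tested (0.662%), and below them for 125 (1.24%). Among the called genes this separation held for 56 of 106 higher and 111 of 151 lower genes. Called genes were well expressed, and 222 of the 257 had a mean of at least 100 CPM, as did 2692 of all genes tested. Calls were thus more frequent among well-expressed genes. The shares of gene lists below stand against all genes tested at any level, and the part of level in them was not tested.

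Segment C had no part in the test. Its mean lay between the means of the sides for 103 of the 106 genes called higher and for 148 of the 151 called lower, against 3401 of all 10118 genes tested (33.6%). Called genes were picked for a gap between the sides, and a wider gap holds the mean of C more often. The contrast with all genes is therefore no separate result. Among the genes called higher, the segment with the highest mean was E for 102 and D for 4. Among those called lower it was A for 123 and B for 28. The direction was the same in each of the 4 oocytes for 103 of the higher and 149 of the lower genes. Directions and highest segments rest on the libraries that chose these genes, so neither is a separate result.

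Scaling of the libraries set how calls were split between higher and lower genes. With the factors by which the authors had divided their counts, 202 genes were called, 122 higher and 80 lower on the vegetal side, so that 60.4% were higher in place of 41.2%. These factors shifted the median of all genes tested by 0.221 on the log2 scale, from -0.00702 to 0.214. All 33 lower genes that differed by less than 2-fold lost their call with these factors, and 80 of the 118 larger falls kept it. Relative to the reads in genes, the authors' factors were 1.24 to 1.32 in segment A, 0.871 to 0.930 in B, 0.790 to 0.833 in D and 1.03 to 1.11 in E. Of the gene lists described below, 15 had a median log2 fold change under 0 that turned positive with these factors, among them those for the cell cycle, the centrosome, DNA replication and repair, chromatin and translation, so these medians give no direction. Changes below are relative to the TMM scaling, and no called gene reversed its sign under any setting. Without oocyte 1, 153 genes were called, 67 higher and 86 lower. As the only oocyte with libraries of A, B, D and E, it takes the most libraries with it when left out.

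**Figure D1:**
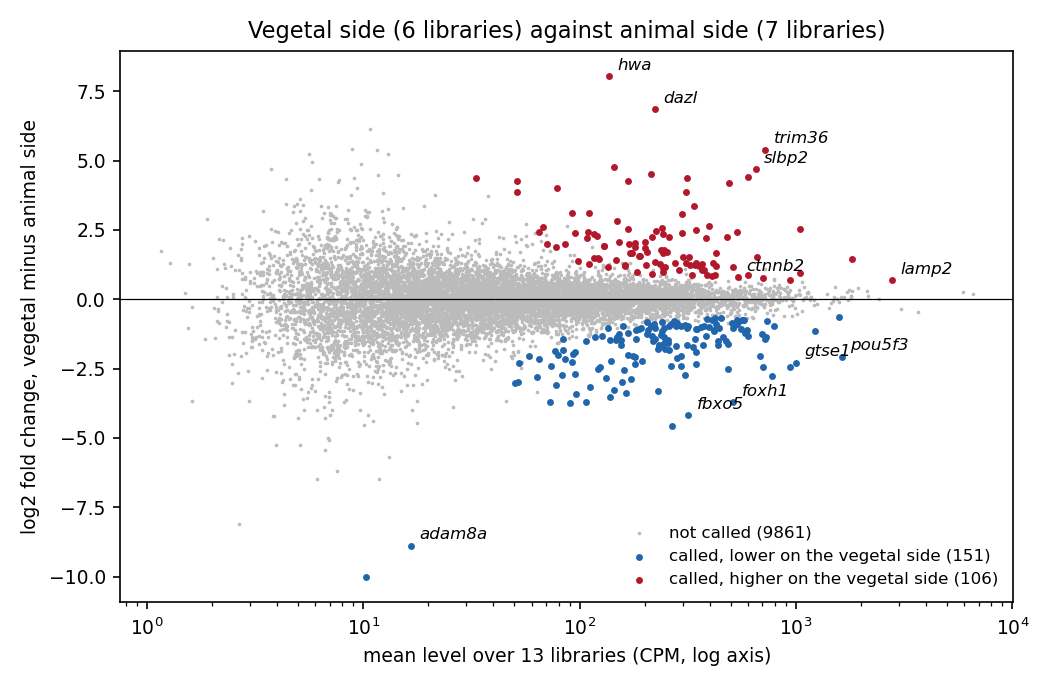
Each point is 1 of 10118 genes tested, with its mean level over 13 libraries in CPM on a log axis against its log2 fold change between the vegetal side (6 libraries) and the animal side (7 libraries). Genes called higher (106) reached log2 fold changes of 8.05 (hwa), and nearly all called genes lay at high mean levels.

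The orientation of the sides was checked against RNAs with a known place in the oocyte. All 7 tested RNAs reported at the vegetal pole (hwa, dazl, trim36, sybu, celf1, vrtn and slbp2) were higher on the vegetal side, with no overlap between the sides. Of 7 tested RNAs reported on the animal side, 3 were called, and pou5f3, cpeb1 and ccnb1 were lower on the vegetal side. These 7 and 3 genes were known to differ between segments A and E from earlier work on the same libraries, so they show the labelled orientation and are no separate result. The other 4 animal RNAs were gdf3 (-0.013 ± 0.18), nanog (0.011 ± 0.16), sox19b (-0.30 ± 0.19) and zar1 (0.66 ± 0.83) on the log2 scale (SE). Their edgeR adjusted p-values were 0.998, 0.998, 0.907 and 0.998, and their levels overlapped between the sides.

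Genes with the largest rise on the vegetal side, among called genes averaging 10 CPM or more and with 1 direction in all 4 oocytes, were hwa, dazl, trim36, grip2, slbp2, lef1, sybu and ldlrad4. Huluwa (hwa, ENSDARG00000094542), a membrane protein that starts dorsal axis formation in zebrafish, had levels of 0 to 4.77 CPM (median 0.364) on the animal side and 26.1 to 678 CPM (median 228) on the vegetal side. Its log2 fold change was 8.05 ± 0.90 (SE, edgeR adjusted p 2.92e-07). Levels of dazl (ENSDARG00000036214), an RNA-binding protein of germ cells, were 0.0439 to 17.0 CPM (median 1.87) on the animal side and 80.3 to 1194 CPM (median 347) on the vegetal side. The difference for dazl was 6.87 ± 0.79 on the log2 scale (edgeR adjusted p 5.16e-07). The vegetal values of both genes fell into a lower set from segment D and a higher set from segment E, and every one lay above every animal value. The scaffold gene grip2 (ENSDARG00000087187) had 1.64 to 34.7 CPM (median 7.86) on the animal side and 41.5 to 809 CPM (median 233) on the vegetal side. For grip2, the log2 fold change was 4.78 ± 0.66 (edgeR adjusted p 1.13e-05). A second identifier named grip2 was tested as well and had a log2 fold change of -0.29 ± 1.89. Histone mRNAs are bound at their stem-loop by the products of slbp genes, and slbp2 (ENSDARG00000069428) had 21.9 to 75.1 CPM (median 51.6) on the animal side and 367 to 2486 CPM (median 1303) on the vegetal side. The difference for slbp2 was 4.69 ± 0.40 on the log2 scale (edgeR adjusted p 3.75e-09). For ldlrad4 (ENSDARG00000070555), known from mammals as an inhibitor of transforming growth factor signalling, the levels were 0 to 14.2 CPM (median 0.525) on the animal side and 11.7 to 252 CPM (median 39.6) on the vegetal side and the log2 fold change was 4.39 ± 1.13 (edgeR adjusted p of 0.0242). Its sides overlapped, and the call ended without segment A of oocyte 1 (0.0565), segment A of oocyte 3 (0.059) or segment E of oocyte 4 (0.538), and without oocytes 1, 2, 3 or 4 (0.114, 0.066, 0.0515 and 0.333).

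The largest falls under the same rule were in adam8a, ccdc102a, fbxo5, syne2a, traip, exd2, foxh1 and itpkc. The metalloprotease gene adam8a (ENSDARG00000001452) had 11.7 to 49.7 CPM (median 31.6) on the animal side and 0 to 0.442 CPM (median 0) on the vegetal side. No vegetal library held more than 3 reads of it, so it was at least 103-fold lower there against a floor of 3 reads per library (edgeR adjusted p of 0.00183). The call ended without oocyte 3 (0.0537), and DESeq2 gave no adjusted p. Levels of fbxo5 (ENSDARG00000039020), which encodes Emi1, an inhibitor of the anaphase promoting complex, were 332 to 698 CPM (median 601) on the animal side and 12.96 to 57.0 CPM (median 29.5) on the vegetal side. For fbxo5, the log2 fold change was -4.19 ± 0.31 (edgeR adjusted p 2.41e-10). This was the smallest adjusted p of the 16 genes. For foxh1 (ENSDARG00000055630), the transcription factor through which Nodal signals act with Smad proteins, the levels were 662 to 1316 CPM (median 817) on the animal side and 14.4 to 128 CPM (median 59.4) on the vegetal side. The difference for foxh1 was -3.69 ± 0.33 on the log2 scale (edgeR adjusted p 8.15e-09). The gene ccdc102a (ENSDARG00000003872) had 206 to 652 CPM (median 531) on the animal side and 1.77 to 55.8 CPM (median 16.2) on the vegetal side. For ccdc102a, the log2 fold change was -4.56 ± 0.53 (edgeR adjusted p 5.41e-07). Nesprin-2, encoded by syne2a (ENSDARG00000030107), links the nucleus to the cytoskeleton, and its transcript was at 112 to 256 CPM (median 157) on the animal side and 0 to 31.8 CPM (median 11.03) on the vegetal side (log2 fold change -3.75 ± 0.64, adjusted p 0.000254, edgeR). The kinase gene itpkc (ENSDARG00000067741), which phosphorylates inositol trisphosphate, had 138 to 419 CPM (median 241) on the animal side and 8.39 to 43.7 CPM (median 16.4) on the vegetal side (log2 fold change -3.51 ± 0.41, adjusted p 7.20e-07, edgeR). The sides did not overlap for any of these 8 genes. The ubiquitin ligase gene traip (ENSDARG00000011262) had 34.2 to 215 CPM (median 154) on the animal side and 0.0474 to 28.2 CPM (median 2.17) on the vegetal side and a log2 fold change of -3.72 ± 0.85 (edgeR adjusted p 0.00814), and its call ended without oocyte 1 (0.196), without oocyte 4 (0.0625) or on sums per oocyte and side (0.0759). The exonuclease gene exd2 (ENSDARG00000016117) had 102 to 281 CPM (median 169.8) on the animal side and 0.147 to 50.3 CPM (median 7.604) on the vegetal side and a log2 fold change of -3.70 ± 0.78 (edgeR adjusted p 0.00359), and its call ended without oocyte 1 (0.06).

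Wnt signals act by keeping beta-catenin from being degraded by the axin complex, so that it can enter the nucleus with factors of the Tcf and Lef family. Of 38 tested genes on the list for this pathway, 9 (23.7%) were called, 5 higher and 4 lower on the vegetal side, against 2.54% of all genes tested. The list's median log2 fold change was 0.233 (-0.00702 over all genes). Because hwa, trim36 and sybu were placed on the list as known dorsal determinants, their share in the count was fixed by that choice. Upstream in the axis pathway, trim36 (ENSDARG00000062794), a ubiquitin ligase needed for vegetal microtubules, had 5.78 to 87.9 CPM (median 31.6) on the animal side and 414 to 4107 CPM (median 1055) on the vegetal side. The difference for trim36 was 5.39 ± 0.52 on the log2 scale (edgeR adjusted p 2.01e-08). Syntabulin (sybu, ENSDARG00000060112) links cargo to kinesin and carries dorsal determinants in zebrafish, and its levels were 18.8 to 133 CPM (median 48.0) on the animal side and 199 to 2526 CPM (median 996) on the vegetal side. For sybu, the log2 fold change was 4.42 ± 0.51 (edgeR adjusted p 5.41e-07). The kinase gene csnk1da (ENSDARG00000008370) had 247 to 347 CPM (median 294) on the animal side and 352 to 733 CPM (median 533) on the vegetal side (log2 fold change 0.83 ± 0.20, adjusted p 0.01, edgeR). Its call ended without oocyte 2 (0.0769) or oocyte 4 (0.0942). At the nuclear end of the pathway, lef1 (ENSDARG00000031894) had 1.39 to 45.4 CPM (median 13.6) on the animal side and 146 to 831 CPM (median 365) on the vegetal side. The difference for lef1 was 4.53 ± 0.58 on the log2 scale (edgeR adjusted p 2.91e-06). None of these 5 genes had any vegetal library at or below an animal one.

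The lower members of the Wnt list comprised a scaffold, receptors and a repressor. The scaffold axin1 (ENSDARG00000102964), on which beta-catenin is marked for degradation, had 345 to 909.7 CPM (median 425) on the animal side and 107 to 223 CPM (median 139.9) on the vegetal side, with a log2 fold change of -1.73 ± 0.24 (edgeR adjusted p 1.11e-05), and its sides did not overlap. Receptor gene fzd7 (ENSDARG00000027589) had 80.0 to 411 CPM (median 294) on the animal side and 33.5 to 93.3 CPM (median 65.4) on the vegetal side. For fzd7, the log2 fold change was -2.04 ± 0.32 (edgeR adjusted p 6.93e-05). The receptor gene fzd5 (ENSDARG00000025420) had 62.1 to 227 CPM (median 167) on the animal side and 20.2 to 85.4 CPM (median 60.0) on the vegetal side (log2 fold change -1.49 ± 0.41, adjusted p 0.0391, edgeR), and its call did not hold with the oocyte as a replicate block (adjusted p 0.065). It also ended when any of 7 libraries was left out, segments A, B and E of oocyte 1 (0.0762, 0.107 and 0.102), A of oocyte 2 (0.105) and A, D and E of oocyte 3 (0.129, 0.0765 and 0.11). The Tcf repressor gene tcf7l1 (ENSDARG00000038159) had 106 to 356 CPM (median 239) on the animal side and 55.9 to 133 CPM (median 99.3) on the vegetal side (log2 fold change -1.22 ± 0.29, adjusted p 0.0114, edgeR), and was not called without oocyte 1 (0.198), oocyte 2 (0.101) or oocyte 3 (0.0721). The 3 genes other than axin1 overlapped between the sides. With the authors' factors, fzd7 (0.00146) and axin1 (0.00145) were called, and fzd5 (0.27) and tcf7l1 (0.17) were not. On sums per oocyte and side with the block, fzd5 was not called (0.161).

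Beta-catenin itself is encoded by a pair of genes in zebrafish, and loss of maternal ctnnb2 expression is known to abolish the dorsal axis. The gene ctnnb2 is not on the Wnt list and is not part of its counts. Levels of ctnnb2 (ENSDARG00000023472) were 309 to 498 CPM (median 399) on the animal side and 596 to 865 CPM (median 661) on the vegetal side, without overlap. The log2 fold change was 0.80 ± 0.18 with an edgeR adjusted p of 0.00577, and the gene was called neither between E and A (0.82 ± 0.25, adjusted p 0.09) nor between D and B (0.77 ± 0.27, adjusted p 0.419). Its call ended without oocyte 1 (0.283) and with sums per oocyte and side under the block (0.0591). For ctnnb1 (ENSDARG00000014571) the levels were 278 to 727 CPM (median 477) on the animal side and 465 to 713 CPM (median 570.5) on the vegetal side. The difference for ctnnb1 was 0.22 ± 0.20 on the log2 scale (edgeR adjusted p 0.998). The difference between these genes' fold changes was not tested.

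Nodal and bone morphogenetic proteins pattern the mesoderm and the dorsoventral axis of the embryo. Of 47 tested genes of these pathways, 4 (8.51%) were called, against 2.54% of all genes tested. Of the 4, ldlrad4 was higher and foxh1, smurf1 and bmp1 were lower, and the list's median log2 fold change was -0.0295. The ubiquitin ligase gene smurf1 (ENSDARG00000016086), which marks Smad proteins for degradation, had 452 to 887 CPM (median 619) on the animal side and 138 to 347 CPM (median 180.3) on the vegetal side. For smurf1, the log2 fold change was -1.64 ± 0.22 (edgeR adjusted p 8.71e-06). For bmp1 (ENSDARG00000028071), a protease that cleaves the inhibitor chordin, the levels were 77.5 to 211 CPM (median 155) on the animal side and 12.5 to 57.8 CPM (median 37.8) on the vegetal side. The difference for bmp1 was -1.91 ± 0.38 on the log2 scale (edgeR adjusted p 0.00194). The sides did not overlap for either gene, and bmp1 was not called without oocyte 1 (0.127).

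Further regulators of early development are named because of their values. On the vegetal side, bach2a (ENSDARG00000036569), a transcription factor, had 16.8 to 48.8 CPM (median 31.3) on the animal side and 130.2 to 1528 CPM (median 487) on the vegetal side. For bach2a, the log2 fold change was 4.38 ± 0.43 (edgeR adjusted p 3.73e-08). Vertnin (vrtn, ENSDARG00000061963) is known in zebrafish to hold down bmp2b transcription, and had 13.1 to 97.9 CPM (median 25.4) on the animal side and 150.3 to 1505 CPM (median 456) on the vegetal side. The difference for vrtn was 3.87 ± 0.49 on the log2 scale (edgeR adjusted p 2.84e-06). The sulfatase gene sulf1 (ENSDARG00000038428), which trims heparan sulfate outside cells, had 1.46 to 33.4 CPM (median 19.5) on the animal side and 53.9 to 901 CPM (median 255) on the vegetal side. For sulf1, the log2 fold change was 4.25 ± 0.58 (edgeR adjusted p 8.79e-06). These 3 genes did not overlap between the sides. Smaller rises were called for mycl (log2 fold change 1.26 ± 0.26, adjusted p 0.00235, edgeR), yap1, a co-activator of the Hippo pathway (1.07 ± 0.24, adjusted p 0.0068), and eomes, a maternal factor of endoderm formation (1.18 ± 0.26, adjusted p 0.00439). Their calls ended without oocyte 4 (0.0783, 0.0542 and 0.0587), and that of yap1 also without oocyte 1 (0.145). The sides overlapped for yap1 and eomes and did not for mycl. Between E and A, mycl, yap1 and eomes had log2 fold changes of 1.78 ± 0.30, 1.59 ± 0.28 and 1.87 ± 0.30. Between D and B these were 0.51 ± 0.32, 0.33 ± 0.30 and 0.47 ± 0.32, and none was called. Lower on the vegetal side were the clock genes per2 (ENSDARG00000034503; -2.23 ± 0.40, adjusted p 0.000451) and bmal2 (ENSDARG00000041381; -2.99 ± 0.50, adjusted p 0.000193). Levels of bmal2 were 213 to 411 CPM (median 224) on the animal side and 0.442 to 63.0 CPM (median 32.2) on the vegetal side, and those of per2 were 159 to 312 CPM (median 207) on the animal side and 6.48 to 93.9 CPM (median 47.3) on the vegetal side, without overlap in either.

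Germ plasm components and factors of the piRNA pathway, which silences transposons in the germ line, did not move as 1 class. Of 21 tested genes, 6 (28.6%) were called, against 2.54% of all genes tested. The calls were 4 higher (dazl, celf1, dnd1 and ca15b) and 2 lower (tdrd1 and piwil2), and the median log2 fold change was 0.202. The list was drawn from RNAs of known place, several of which earlier work on these libraries had shown to differ. The RNA-binding protein gene celf1 (ENSDARG00000005315) had 58.6 to 149 CPM (median 118) on the animal side and 169 to 1245 CPM (median 626) on the vegetal side. The difference for celf1 was 2.48 ± 0.35 on the log2 scale (edgeR adjusted p 1.34e-05). Dead end (dnd1, ENSDARG00000022813), which protects germ cell RNAs, had 19.5 to 188 CPM (median 111) on the animal side and 208 to 608 CPM (median 380.3) on the vegetal side. For dnd1, the log2 fold change was 1.78 ± 0.33 (edgeR adjusted p 0.000675). Both were separated between the sides. The carbonic anhydrase gene ca15b (ENSDARG00000040510) overlapped between the sides, with 11.6 to 229 CPM (median 63.3) on the animal side and 196 to 427 CPM (median 287) on the vegetal side (log2 fold change 1.90 ± 0.45, adjusted p 0.0118, edgeR), and was not called without oocyte 1 (0.263) or oocyte 3 (0.1). In the other direction, tdrd1 (ENSDARG00000007465), a Tudor protein that binds Piwi proteins, had 231 to 544 CPM (median 323) on the animal side and 52.5 to 166 CPM (median 101) on the vegetal side, with a log2 fold change of -1.79 ± 0.27 (edgeR adjusted p 3.62e-05) and no overlap. The Piwi gene piwil2 (ENSDARG00000062601) had 83.8 to 354 CPM (median 183) on the animal side and 41.5 to 116 CPM (median 87.3) on the vegetal side (log2 fold change -1.37 ± 0.33, adjusted p 0.0143, edgeR). Its call ended with the authors' factors (0.185), without each of 4 single libraries (segment E of oocyte 1, 0.0513; segment E of oocyte 3, 0.0501; segment A of oocyte 4, 0.0659; segment B of oocyte 4, 0.0719) and without oocytes 1, 3 or 4 (0.114, 0.123 and 0.374). It also ended on sums per oocyte and side with the block (0.0674). The organizer of the Balbiani body, buc, had 1314 to 1828 CPM (median 1603) on the animal side and 1269.9 to 1814 CPM (median 1528) on the vegetal side and a log2 fold change of -0.10 ± 0.15 (edgeR adjusted p of 0.998). Its binding partner rbpms2 had 2 identifiers, of which ENSDARG00000045930 was higher on the vegetal side (1.67 ± 0.28, adjusted p 0.000227, edgeR) at 65.0 to 161 CPM (median 133.6) on the animal side and 158 to 568.4 CPM (median 435) on the vegetal side. The other, ENSDARG00000079578, had 713 to 1113 CPM (median 1049) on the animal side and 761 to 1439 CPM (median 1127) on the vegetal side and a log2 fold change of 0.17 ± 0.18 (edgeR adjusted p of 0.998).

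Lists for the control of stored mRNA, deadenylation and translation had few called genes, but at shares above the 2.54% of all genes tested. Of the 2692 genes tested with a mean of at least 100 CPM, 222 were called. Whether these shares stand above those of genes at a like level was not tested. Of 32 tested genes for the control of stored mRNA, 1 was higher (larp4b) and 1 lower (cpeb1), a share of 6.25%. The protein of cpeb1 (ENSDARG00000008454) binds cytoplasmic polyadenylation elements, and its transcript had 843 to 1301 CPM (median 1072) on the animal side and 143 to 353 CPM (median 278) on the vegetal side, with a log2 fold change of -2.04 ± 0.21 (edgeR adjusted p 8.33e-08) and no overlap. Levels of larp4b (ENSDARG00000062146), whose product binds RNA, were 72.6 to 171 CPM (median 114) on the animal side and 142 to 646 CPM (median 419.7) on the vegetal side. The difference for larp4b was 1.76 ± 0.28 on the log2 scale (edgeR adjusted p 8.38e-05). The noncanonical poly(A) polymerase gene tent4b (ENSDARG00000060071), which is on none of the lists, had 124 to 397 CPM (median 222) on the animal side and 26.2 to 108 CPM (median 71.3) on the vegetal side, with a log2 fold change of -1.66 ± 0.33 (edgeR adjusted p 0.00169) and no overlap. Among 47 genes of deadenylation and decay, 3 (6.38%) were called, cnot4 higher (0.87 ± 0.20, adjusted p 0.00862, edgeR) and cnot6 and cnot6b lower (-0.64 ± 0.16, adjusted p 0.0152 and -1.06 ± 0.27, adjusted p 0.0203). The cnot6 genes encode deadenylases of the CCR4-NOT complex, and cnot4 a ubiquitin ligase that joins it. Neither cnot6 (0.694) nor cnot6b (0.353) was called with the authors' factors. In this list DESeq2 called 1 higher and 3 lower genes, and limma 1 higher and 0 lower. Without 1 library, the call of cnot6 ended for segment D of oocyte 1 (0.054), and that of cnot6b for segments B and E of oocyte 1 (0.0514 and 0.0697), D of oocyte 2 (0.0538) and A of oocyte 3 (0.0918). Without oocyte 1, cnot4, cnot6 and cnot6b were not called (0.233, 0.294 and 0.106). Sums per oocyte and side with the block ended the calls of cnot4 (0.0531) and cnot6 (0.126).

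Of 74 translation factors, 3 (4.05%) were called and all were lower, against 1.49% lower of all genes tested. DESeq2 called 0 higher and 4 lower of them, and limma 0 higher and 1 lower. Over all genes tested, DESeq2 called 237 lower and limma 100. The median over the list was -0.0983. Poly(A)-binding protein gene pabpc1a (ENSDARG00000017219), whose product binds the tails of mRNAs, had 1150.0 to 2136 CPM (median 1748) on the animal side and 585 to 860.4 CPM (median 742) on the vegetal side. For pabpc1a, the log2 fold change was -1.15 ± 0.18 (edgeR adjusted p 5.59e-05). It was called with the authors' factors (0.0372) but not with those factors and the block together (0.0628). The other 2, eif4g1 (-0.77 ± 0.19, adjusted p 0.0189, edgeR) and eif4g3 (ENSDARG00000077215; -0.81 ± 0.22, adjusted p 0.0362), encode scaffolds of the cap-binding complex, and none of the 3 overlapped between the sides. With the authors' factors eif4g1 and eif4g3 had adjusted p-values of 0.472 and 0.659, and eif4g3 was not called with the block (0.054). Neither was called on sums per oocyte and side with the block (0.112 and 0.0601). Without 1 library, eif4g1 was lost for 5 of 13 libraries (0.0522 to 0.0767) and eif4g3 for 11 of 13 (0.0511 to 0.112).

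**Figure D2:**
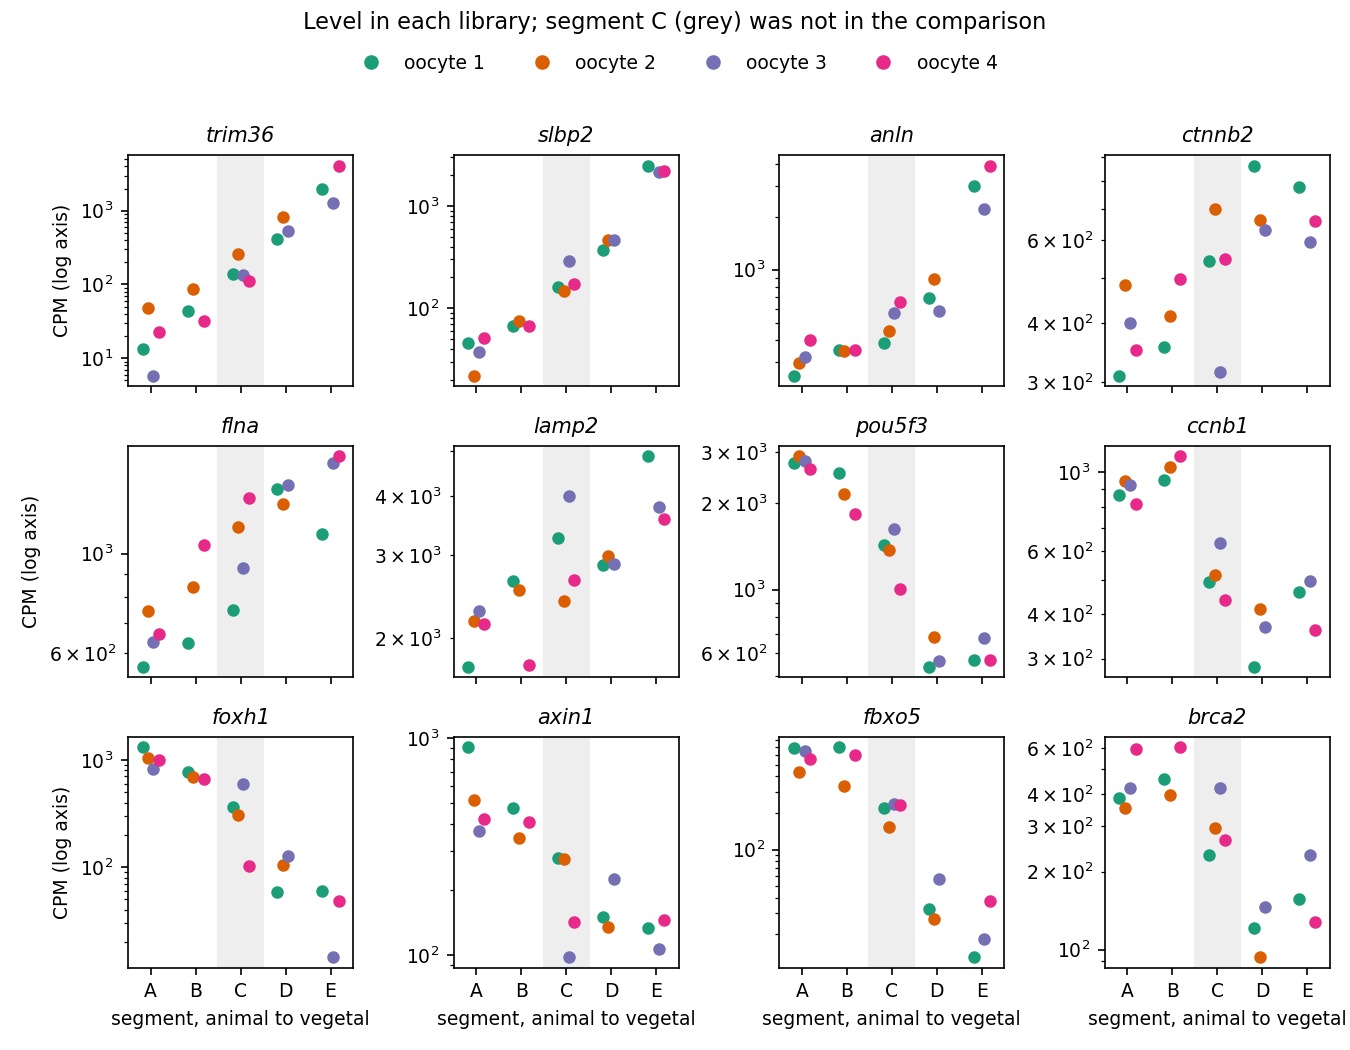
Points are the CPM of 12 genes in each of 17 libraries on log axes, by segment from A to E and coloured by oocyte. For trim36, slbp2, anln, ctnnb2, flna and lamp2 every library of D and E lies above every one of A and B, and for pou5f3, ccnb1, foxh1, axin1, fbxo5 and brca2 every one lies below. Segment C (grey) was not part of the comparison.

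Among 76 tested cyclins and cell cycle kinases with their regulators, edgeR called 0 higher and 3 (3.95%) lower, fbxo5, mastl and ccnb1, against 1.05% higher and 1.49% lower of all genes tested. The list's median was -0.0554, and 0.12 with the authors' factors. Before adjustment 3 were higher and 7 lower at a p under 0.05, and the calls were 2 higher and 4 lower with DESeq2 and 1 higher and 3 lower with limma. Greatwall kinase (mastl, ENSDARG00000055566), which holds off the phosphatase that ends mitosis, had 304 to 595 CPM (median 391) on the animal side and 75.2 to 181 CPM (median 119) on the vegetal side. The difference for mastl was -1.68 ± 0.23 on the log2 scale (edgeR adjusted p 1.01e-05). Cyclin B1 (ccnb1, ENSDARG00000051923), the partner of Cdk1 in meiosis and mitosis, had 815 to 1109.9 CPM (median 945) on the animal side and 285 to 497 CPM (median 391) on the vegetal side. For ccnb1, the log2 fold change was -1.25 ± 0.17 (edgeR adjusted p 1.19e-05). Its relative ccnb2 had a log2 fold change of 0.15 ± 0.17 and cdk1 one of 0.087 ± 0.32 (edgeR adjusted p of 0.998 for both). Of 70 genes of the centrosome and kinetochore, edgeR called 0 higher and 4 (5.71%) lower, DESeq2 0 higher and 5 lower, and limma 0 higher and 2 lower, with 0 higher and 8 lower at an unadjusted p under 0.05. Aurora A (aurka, ENSDARG00000012485), a kinase of spindle poles, had 175 to 527 CPM (median 399) on the animal side and 71.8 to 159 CPM (median 103) on the vegetal side. The difference for aurka was -1.78 ± 0.28 on the log2 scale (edgeR adjusted p 8.26e-05). Its cofactor tacc3 (ENSDARG00000005454) had 889 to 1079 CPM (median 997) on the animal side and 282 to 488 CPM (median 372) on the vegetal side. For tacc3, the log2 fold change was -1.42 ± 0.18 (edgeR adjusted p 2.59e-06). For these 4 genes with values by side, every vegetal library lay below every animal library. The smaller falls of cep152 (-1.05 ± 0.25, adjusted p 0.0111, edgeR) and cep170b (-0.90 ± 0.23, adjusted p 0.0262) were not called with the authors' factors (0.202 and 0.445). That of cep170b was not called with the block (0.0834) or without any of 6 single libraries (0.0578 to 0.131), and cep152 was not called without oocyte 1 (0.222). On sums per oocyte and side with the block, cep152 (0.0709) and cep170b (0.18) were not called.

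Spindle and cytokinesis genes outside these lists were gathered after their values were seen, and their number is no result. The spindle pole gene aspm (ENSDARG00000103754) had 345 to 654 CPM (median 373) on the animal side and 46.8 to 114 CPM (median 80.0) on the vegetal side. The difference for aspm was -2.39 ± 0.25 on the log2 scale (edgeR adjusted p 7.61e-08). Levels of gtse1 (ENSDARG00000013719), a microtubule-bound protein of dividing cells, were 1327 to 2055 CPM (median 1498) on the animal side and 182 to 483 CPM (median 296) on the vegetal side. For gtse1, the log2 fold change was -2.29 ± 0.21 (edgeR adjusted p 8.15e-09). Also lower were gas2l3, which links actin and microtubules (-2.88 ± 0.31, adjusted p 1.77e-07, edgeR), cspp1 (-3.26 ± 0.44, adjusted p 7.93e-06), alms1 (-1.46 ± 0.22, adjusted p 5.27e-05) and sinup (-1.44 ± 0.23, adjusted p 0.000104). None of these 6 overlapped between the sides. Smaller falls were called for kifc1 (-0.91 ± 0.20, adjusted p 0.00648), ect2, a gene of the cleavage furrow (-0.74 ± 0.19, adjusted p 0.0277), and kif23, a kinesin of the spindle midzone (-0.68 ± 0.18, adjusted p 0.0352). These 3 overlapped and were not called with the authors' factors (0.389, 0.656 and 0.677). The call of kif23 ended with the block (0.0565) and without any of 10 single libraries (0.0576 to 0.0943). That of ect2 ended without any of 6 single libraries (0.0665 to 0.0994). With the block on sums per oocyte and side, kifc1 (0.0667) and kif23 (0.154) were not called.

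DNA replication and repair genes gave 0 higher and 3 lower calls by edgeR among 109 tested, and this share of 2.75% is near the 2.54% of all genes tested. The list's median was -0.178. At an unadjusted p under 0.05 there were 1 higher and 8 lower, and DESeq2 gave 0 higher and 5 lower calls, limma 0 and 2. The repair gene brca2 (ENSDARG00000079015) had 354 to 606 CPM (median 422) on the animal side and 93.3 to 233 CPM (median 137) on the vegetal side. The difference for brca2 was -1.65 ± 0.23 on the log2 scale (edgeR adjusted p 1.10e-05). The origin recognition subunit orc1 (ENSDARG00000039217) had 443 to 658 CPM (median 526) on the animal side and 93.2 to 295 CPM (median 152) on the vegetal side. For orc1, the log2 fold change was -1.63 ± 0.24 (edgeR adjusted p 2.23e-05). Both were separated between the sides, while rad52, a recombination gene (-1.82 ± 0.42, adjusted p 0.00925, edgeR), overlapped and was not called with the authors' factors (0.0537) or without oocyte 1 (0.0722) or oocyte 2 (0.229), nor on sums per oocyte and side with the block (0.0583).

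Motor proteins were called in both directions. Of 56 tested genes for kinesin, dynein and its partners, 7 (12.5%) were called, against 2.54% of all genes tested. The calls were 2 higher and 5 lower, and the median log2 fold change was -0.259. The dynein regulator ndel1 (ENSDARG00000104225) had 50.3 to 169 CPM (median 93.5) on the animal side and 184 to 847 CPM (median 424) on the vegetal side, with a log2 fold change of 2.23 ± 0.30 (edgeR adjusted p 8.71e-06) and no overlap. The microtubule-depolymerizing kinesin gene kif2a (ENSDARG00000043571) overlapped between the sides, with 74.4 to 116 CPM (median 85.4) on the animal side and 97.6 to 692 CPM (median 193) on the vegetal side (log2 fold change 1.86 ± 0.37, adjusted p 0.00178, edgeR), and its high values were those of segment E. Its call ended without oocyte 1 (0.0676) or oocyte 4 (0.0556). Lower on the vegetal side were kif13b (-1.35 ± 0.30, adjusted p 0.00561, edgeR), the dynein adaptor bicd2 (ENSDARG00000098215; -2.14 ± 0.55, adjusted p 0.0221), pafah1b1, which encodes Lis1, the partner of Ndel1 at dynein (-0.84 ± 0.23, adjusted p 0.0433), kifc1 and kif23. A second identifier of each of bicd2 and kif13b was tested and not called, with log2 fold changes of 1.02 ± 1.58 and -0.009 ± 0.38. With the authors' factors, kif13b was called (0.0375), and bicd2 (0.0666) and pafah1b1 (0.45) were not. Without 1 library, bicd2 was lost for segments A and D of oocyte 1, A of oocyte 2, and A and E of oocyte 3 (0.0565 to 0.0869), and pafah1b1 for 9 of 13 libraries (0.0603 to 0.137). On sums per oocyte and side with the block, pafah1b1 (0.243), kifc1 (0.0667) and kif23 (0.154) were not called.

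The actin cytoskeleton list gave 1 call among 72 tested genes (1.39%, against 2.54% of all genes tested), myh9, and a median of 0.0363. Non-muscle myosin heavy chain myh9 (ENSDARG00000063295) had 1.93 to 119.6 CPM (median 97.7) on the animal side and 118 to 687 CPM (median 308) on the vegetal side, with a log2 fold change of 2.08 ± 0.49 (edgeR adjusted p 0.0104), and its call ended without segment E of oocyte 4 (0.0534) and without oocyte 1 or 4 (0.0998 and 0.0783). Other genes of the cell cortex were gathered after their values were seen, outside the list, and their number is no result. Anillin (anln, ENSDARG00000060917), a scaffold of the contractile ring, had 249 to 396 CPM (median 343) on the animal side and 578 to 3911 CPM (median 1548) on the vegetal side. The difference for anln was 2.52 ± 0.31 on the log2 scale (edgeR adjusted p 2.10e-06). The filamin gene flna (ENSDARG00000074201), which crosslinks actin, had 560.0 to 1045 CPM (median 663) on the animal side and 1107 to 1649.9 CPM (median 1409.9) on the vegetal side. For flna, the log2 fold change was 0.95 ± 0.17 (edgeR adjusted p 0.000516). Its partner rflnb had 133 to 285 CPM (median 185) on the animal side and 328 to 502 CPM (median 382) on the vegetal side (1.04 ± 0.22, adjusted p 0.00356, edgeR). The formin gene fhod1 (2.58 ± 0.41, adjusted p 9.55e-05), the Cdc42 activator fgd6 (3.06 ± 0.44, adjusted p 1.89e-05), the lipid kinase pip5k1a (2.03 ± 0.37, adjusted p 0.000495), rtkn2 (1.57 ± 0.35, adjusted p 0.00569) and the myosin light chain myl12.1 (2.41 ± 0.51, adjusted p 0.00369) rose by over 2-fold. Also called higher were flii (1.24 ± 0.34, adjusted p 0.0366), srgap1b (1.16 ± 0.32, adjusted p 0.0482) and, at less than 2-fold, lima1 (0.89 ± 0.20, adjusted p 0.00693). For anln, flna, rflnb, fgd6 and lima1 the sides did not overlap, and for the others they did. The call of srgap1b ended with the block (0.0577) and without any of 10 single libraries (0.0584 to 0.146), and that of flii without any of 8 (0.0604 to 0.186). Without oocyte 1, rflnb (0.0808) and lima1 (0.137) were not called, nor was rtkn2 without oocyte 2 (0.0813) or myl12.1 without oocyte 4 (0.126).

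**Figure D3:**
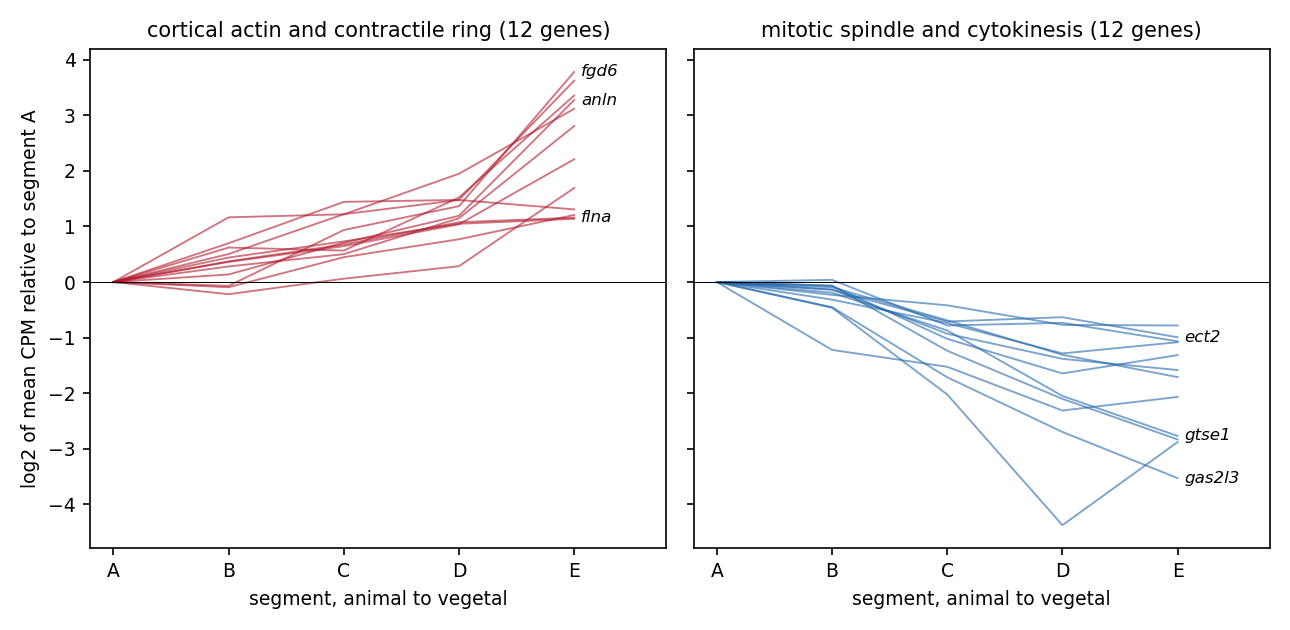
Lines are the mean CPM of each gene in segments A to E as log2 relative to its mean in segment A, for 12 called genes of the actin cortex (left) and 12 of the spindle and cytokinesis (right), both chosen after their values were seen. The cortical genes differ in shape. The means of anln, fhod1 and fgd6 rise most between D and E, those of flna (1371 and 1451 CPM) and lima1 (499 and 531 CPM) differ little between D and E, and that of srgap1b is higher in D (204 CPM) than in E (182 CPM). All 12 spindle genes lie below their level in A in both C and D.

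Chromatin genes gave 1 higher and 6 lower calls among 146 tested (4.79%), against 2.54% of all genes tested, and their median was -0.112. DESeq2 called 3 higher and 11 lower of them and limma 1 higher and 2 lower. Over all 10118 genes tested, DESeq2 called 414 and limma 250. With limma the share of the list was therefore not above that of all genes. The INO80 subunit gene ino80db (ENSDARG00000062226) had 29.0 to 92.9 CPM (median 63.6) on the animal side and 166 to 1354 CPM (median 494) on the vegetal side, with a log2 fold change of 3.36 ± 0.37 (edgeR adjusted p 2.46e-07) and no overlap. Among the lower genes were histone H3 lysine methyltransferases and demethylases, kmt2d (-1.20 ± 0.21, adjusted p 0.000378, edgeR), kdm5b (-1.30 ± 0.24, adjusted p 0.000674), kmt2bb (-1.10 ± 0.25, adjusted p 0.00693), kmt2c (-0.95 ± 0.22, adjusted p 0.00939) and kdm4aa (-0.95 ± 0.22, adjusted p 0.00837), with bahcc1 as the sixth (-2.72 ± 0.63, adjusted p 0.00896). Levels of kmt2d (ENSDARG00000037060) were 499 to 1122 CPM (median 704) on the animal side and 192 to 411 CPM (median 371) on the vegetal side, and those of kdm5b (ENSDARG00000057093) were 182 to 456 CPM (median 330.2) on the animal side and 102 to 151 CPM (median 142) on the vegetal side, without overlap. With the authors' factors kdm5b alone of these 6 was called (0.0395), and the others had adjusted p-values of 0.0703 (kmt2d), 0.209 (kmt2bb), 0.392 (kmt2c), 0.332 (kdm4aa) and 0.0543 (bahcc1). The call of kdm4aa also ended on sums per oocyte and side with the block (0.06). Large nuclear regulators outside the list, named after their values were seen, were also lower. The transcriptional repressor spen (ENSDARG00000074245) had 306 to 565 CPM (median 444) on the animal side and 60.6 to 143 CPM (median 102) on the vegetal side, with a log2 fold change of -2.10 ± 0.23 (edgeR adjusted p 2.09e-07), while its second identifier ENSDARG00000074332 had a log2 fold change of 0.037 ± 0.18. For prr12 (ENSDARG00000074229) the levels were 426 to 1150.0 CPM (median 696) on the animal side and 87.4 to 198 CPM (median 140.3) on the vegetal side. The difference for prr12 was -2.50 ± 0.26 on the log2 scale (edgeR adjusted p 1.04e-07). The Max-binding factor mgaa (ENSDARG00000078784) had 562 to 1108 CPM (median 809.8) on the animal side and 219 to 502 CPM (median 294) on the vegetal side (-1.34 ± 0.22, adjusted p 0.00013, edgeR).

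Membrane transporters were called on both sides. Of 155 tested solute carriers, 7 (4.52%) were called, against 2.54% of all genes tested. The calls were 3 higher and 4 lower, and none of the 7 overlapped between the sides. The anion exchanger slc4a2 (ENSDARG00000052330) had 98.1 to 286 CPM (median 161) on the animal side and 460.0 to 2262 CPM (median 645) on the vegetal side. For slc4a2, the log2 fold change was 2.41 ± 0.31 (edgeR adjusted p 3.82e-06). The amino acid transporter slc7a6 (ENSDARG00000054423) had 21.6 to 86.5 CPM (median 61.1) on the animal side and 125 to 480.2 CPM (median 312) on the vegetal side. The difference for slc7a6 was 2.52 ± 0.36 on the log2 scale (edgeR adjusted p 1.68e-05). The zinc transporter slc39a6 (ENSDARG00000068143) had 396 to 925 CPM (median 469.6) on the animal side and 76.2 to 168 CPM (median 99.4) on the vegetal side. For slc39a6, the log2 fold change was -2.35 ± 0.24 (edgeR adjusted p 8.33e-08). Also lower were the nucleoside transporter slc29a2 (-2.83 ± 0.44, adjusted p 5.59e-05, edgeR), the phosphate transporter slc20a2 (-2.40 ± 0.51, adjusted p 0.00359) and the taurine transporter slc6a6 (-2.79 ± 0.72, adjusted p 0.0259). The call of slc20a2 ended without oocyte 1 (0.153), and that of slc6a6 with the authors' factors (0.0705) and without segment A of oocyte 1 (0.148), segments A, D and E of oocyte 3 (0.065, 0.0651 and 0.0602) or E of oocyte 4 (0.0616).

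Genes of the lysosome, endoplasmic reticulum, vesicles and lipids gave few calls, and their shares stand against 2.54% of all genes tested. Among 34 lysosomal genes 2 were called (5.88%), both higher, with a list median of 0.243. The lysosomal membrane protein gene lamp2 (ENSDARG00000014914) had 1738 to 2643 CPM (median 2169) on the animal side and 2851 to 4866 CPM (median 3285) on the vegetal side, with a log2 fold change of 0.68 ± 0.16 (edgeR adjusted p 0.00917), the smallest difference called among higher genes, and no overlap. Its relative lamp1b (0.99 ± 0.23, adjusted p 0.0079, edgeR) overlapped, and neither was called without oocyte 1 (0.0933 and 0.11). Of 90 genes of the endoplasmic reticulum and secretory pathway, 3 (3.33%) were called, the golgin golga3 higher (ENSDARG00000062511; 2.28 ± 0.40, adjusted p 0.000366, edgeR) and rrbp1b and the translocon gene sec61a1 lower (-1.52 ± 0.23, adjusted p 5.59e-05 and -1.14 ± 0.24, adjusted p 0.00344). Levels of golga3 were 12.7 to 98.3 CPM (median 38.8) on the animal side and 129.6 to 310.4 CPM (median 213) on the vegetal side, and those of rrbp1b (ENSDARG00000041703), which binds ribosomes to the endoplasmic reticulum, were 413 to 918 CPM (median 744) on the animal side and 112 to 289 CPM (median 252) on the vegetal side. The call of sec61a1 ended with the authors' factors (0.077) and on sums per oocyte and side with the block (0.0583). In a list of 185 genes for endosomes and vesicle sorting, 2 were called (1.08%), rab40c higher (1.67 ± 0.29, adjusted p 0.000348, edgeR) and vps18 lower (-1.87 ± 0.51, adjusted p 0.037). Levels of rab40c (ENSDARG00000061208) were 44.8 to 156 CPM (median 84.0) on the animal side and 188 to 443 CPM (median 216) on the vegetal side, and vps18 was lost with the authors' factors (0.101) and without any of 9 single libraries (0.065 to 0.124). Of 40 genes for lipoprotein receptors and lipid synthesis, 2 (5%) were called, ldlrad4 and the fatty acid elongase gene elovl3 (ENSDARG00000038639; 1.22 ± 0.25, adjusted p 0.00255, edgeR), which was not called without oocyte 1 (0.0864). As ldlrad4 is the signalling inhibitor named above and was also counted with the Nodal genes, the share of 5% is no result about lipid genes.

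In other lists the share called was near or below the 2.54% of all genes. On the list for splicing factors, 2 of 129 tested genes (1.55%) were called and both were higher. The RNA-binding protein gene rbm33 (ENSDARG00000068562) had 104 to 327 CPM (median 243) on the animal side and 382 to 711 CPM (median 633) on the vegetal side (1.30 ± 0.22, adjusted p 0.000268, edgeR). The product of lsm14a (ENSDARG00000100553) is known from mRNA storage granules, so the count is no result about splicing factors. Levels of lsm14a were 102 to 182 CPM (median 150.3) on the animal side and 239 to 511 CPM (median 307) on the vegetal side (1.28 ± 0.23, adjusted p 0.000612, edgeR). Of 35 histone genes and their processing factors, slbp2 was the 1 called (2.86%). Their log2 fold changes were positive for 29 and negative for 6, with a median of 0.253 (0.481 with the authors' factors). The direction of the list was not tested. Among 95 ubiquitin-conjugating and deubiquitinating enzymes 2 (2.11%) were called, usp19 higher (1.41 ± 0.36, adjusted p 0.0209, edgeR) and usp44 lower (-1.02 ± 0.29, adjusted p 0.0491). The call of usp44 ended with the block (0.062), with the block on sums per oocyte and side (0.112) and without any of 10 single libraries (0.0513 to 0.17), and that of usp19 without segment E of oocyte 1 (0.0626), A, D or E of oocyte 3 (0.0604, 0.0554 and 0.0511) or E of oocyte 4 (0.0597). Of 70 genes of the nuclear pore and transport, nup35 was the 1 called (1.43%), lower at -1.24 ± 0.28, adjusted p 0.00799 (edgeR), and its call ended with the authors' factors (0.0706).

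No gene was called among 69 cytosolic ribosomal protein genes, 38 proteasome genes, 57 mitochondrial ribosomal protein genes, 68 nuclear-encoded oxidative phosphorylation genes, 73 chaperones, 48 RNA helicases, 28 tRNA synthetases, 23 glycolysis genes, 21 tubulin genes and 19 genes of the zona pellucida family (0% in each by edgeR). At an unadjusted p under 0.05 there were 5 chaperones, 2 zona pellucida genes and 1 gene each for cytosolic ribosomal, mitochondrial ribosomal, tRNA synthetase and tubulin genes, and 0 in the other 4 lists. DESeq2 called 3 chaperones and 1 zona pellucida gene, and limma 0 in all 10 lists. The median log2 fold change was 0.233 for cytosolic and -0.497 for mitochondrial ribosomal proteins, and between -0.273 and 0.0441 for the other 8 lists. With the authors' factors the median was 0.398 for cytosolic and -0.247 for mitochondrial ribosomal proteins. For the mitochondrial ribosomal proteins, 40 of 57 genes had a negative and 17 a positive log2 fold change, and for the cytosolic ones 22 of 69 were negative and 47 positive. The 13 genes encoded in mitochondrial DNA had at most 1 read in any library, and none was tested.

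**Figure D4:**
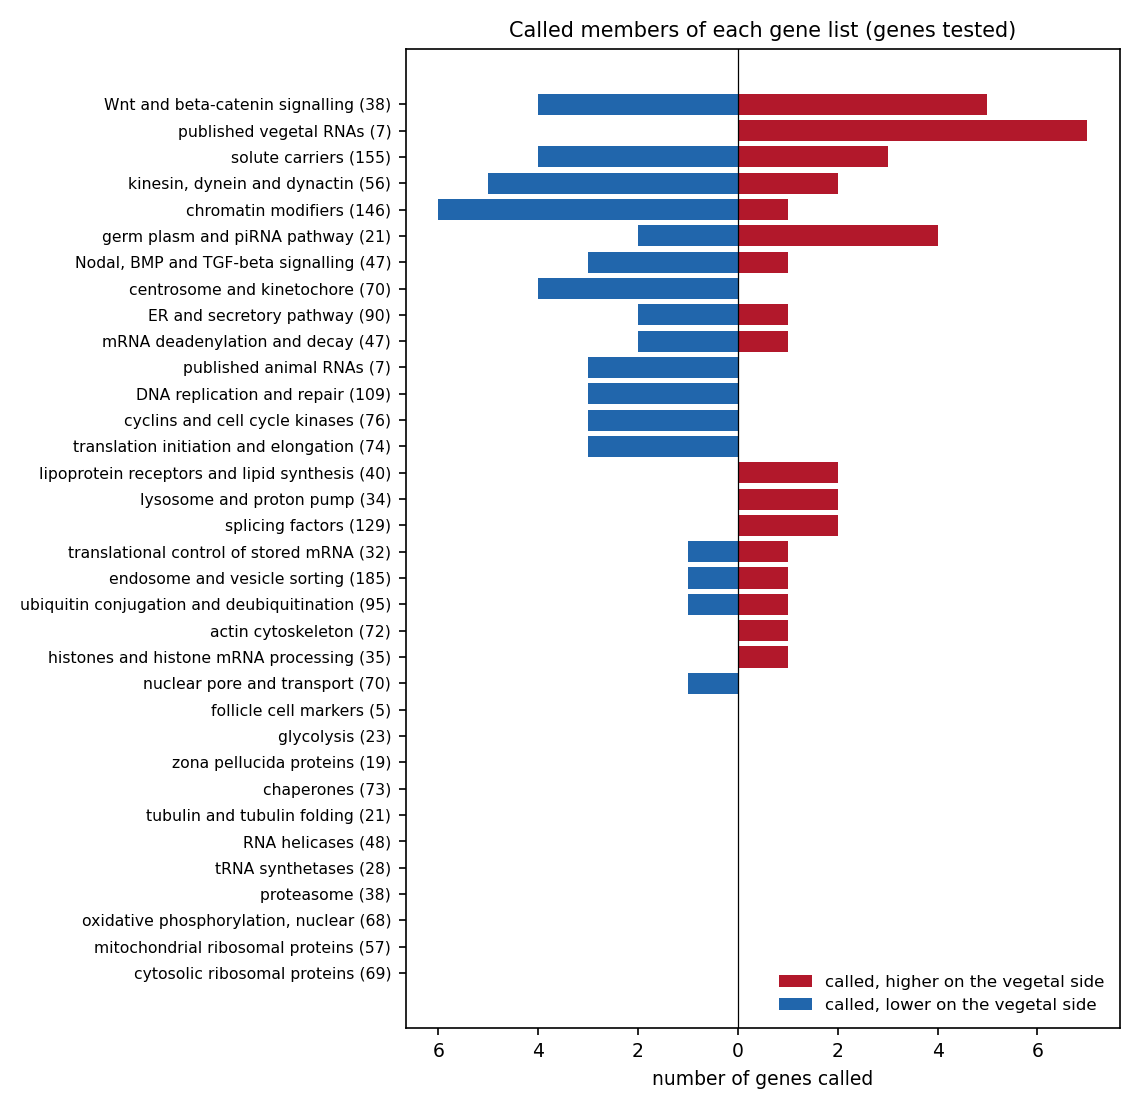
Bars give the number of genes called higher (right) and lower (left) on the vegetal side in each list with tested genes, with the number tested in brackets. The Wnt list had 5 higher and 4 lower calls among 38 tested genes, where 1.05% of all genes were called higher and 1.49% lower.

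Pooling brought out genes that neither pair of single segments called. In a fit with 1 coefficient per segment on the same 13 libraries, E against A gave 239 calls (2.36%), of which 126 (1.25%) were higher and 113 (1.12%) lower in E. D against B gave 61 (0.603%), with 11 (0.109%) higher and 50 (0.494%) lower in D. These comparisons share their libraries with the comparison of sides, so an overlap of their calls is no separate result. Of the 257 genes called between the sides, 57 were called in neither pair. The calls of E against A in turn held genes that were not called between the sides. Of the 57 genes called between the sides and in neither pair, 50 averaged 10 CPM or more with 1 direction in all 4 oocytes. These were 9 higher and 41 lower on the vegetal side. The outer count was 158 without segment E of oocyte 1.

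Higher on the vegetal side among these 50 genes, in order of p, were ctnnb2, sap130, hsd17b12, clec16a, fndc3b, slc25a25 and dazap2. The elongation enzyme gene hsd17b12 (ENSDARG00000015709), which acts on very long fatty acids, had 71.9 to 276 CPM (median 119) on the animal side and 283 to 441 CPM (median 328) on the vegetal side. For hsd17b12, the log2 fold change was 1.14 ± 0.27 (edgeR adjusted p 0.01). For sap130 (ENSDARG00000079352), a subunit of the Sin3 corepressor, the levels were 179 to 365 CPM (median 266) on the animal side and 251 to 774 CPM (median 583) on the vegetal side, with a log2 fold change of 1.06 ± 0.24 (edgeR adjusted p 0.00917), and the sides overlapped. The log2 fold changes of the others were 3.11 ± 0.76 for clec16a, 1.996 ± 0.50 for fndc3b, 1.28 ± 0.33 for slc25a25 and 0.92 ± 0.26 for dazap2, with edgeR adjusted p-values of 0.0145, 0.0178, 0.0263 and 0.0482. Without oocyte 1, the calls of ctnnb2, sap130, hsd17b12, clec16a, fndc3b and slc25a25 ended (adjusted p 0.0525 for hsd17b12 to 0.374 for sap130), and dazap2 was lost without oocytes 2, 3 or 4 (0.133, 0.339 and 0.259) and without any of 10 single libraries (0.0514 to 0.184). The call of slc25a25 ended with the block (0.0694) and without segment B or E of oocyte 1 (0.0625 and 0.113), A of oocyte 2 (0.0601), or D or E of oocyte 3 (0.0792 and 0.0572). That of fndc3b ended without segment E of oocyte 4 (0.216). On sums per oocyte and side with the block, ctnnb2 (0.0591), sap130 (0.0931) and slc25a25 (0.101) were not called.

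Lower on the vegetal side among the same 50 genes, and first by p, were tent4b, adam8a, lrmp, clip1, suco, kif13b, ell2 and kmt2bb. The gene lrmp (ENSDARG00000045574), known in zebrafish as futile cycle and needed to attach the centrosome to the nucleus after fertilization, had 337 to 557 CPM (median 482) on the animal side and 133 to 310.5 CPM (median 219) on the vegetal side. The difference for lrmp was -1.07 ± 0.23 on the log2 scale (edgeR adjusted p 0.00344). The microtubule plus-end protein gene clip1 (ENSDARG00000078722) had 73.5 to 161 CPM (median 127) on the animal side and 8.05 to 56.2 CPM (median 28.2) on the vegetal side. For clip1, the log2 fold change was -2.01 ± 0.43 (edgeR adjusted p 0.00414). Suco (ENSDARG00000016532), a SUN domain protein gene, had 446 to 779 CPM (median 633) on the animal side and 299 to 419 CPM (median 354) on the vegetal side. The difference for suco was -0.84 ± 0.18 on the log2 scale (edgeR adjusted p 0.0048). The kinesin gene kif13b (ENSDARG00000073859) had 259 to 494 CPM (median 335) on the animal side and 52.2 to 230.3 CPM (median 124) on the vegetal side, and the elongation factor gene ell2 (ENSDARG00000006251) had 329 to 621 CPM (median 459.6) on the animal side and 151 to 332 CPM (median 239) on the vegetal side. For ell2, the log2 fold change was -0.96 ± 0.21 (edgeR adjusted p 0.00622). Of these 8 genes ell2 alone overlapped between the sides. With the authors' factors tent4b (0.0164), adam8a (0.00361), clip1 (0.03) and kif13b (0.0375) were called, and lrmp (0.0756), suco (0.3), ell2 (0.283) and kmt2bb (0.209) were not. Leaving out any 1 library ended none of these 8 calls. That of suco ended on sums per oocyte and side with the block (0.0995). Without oocyte 1, ell2 (0.0565) and kmt2bb (0.119) were not called. Without oocyte 2, the same held for ell2 (0.0644), kmt2bb (0.0935), lrmp (0.0656), suco (0.106) and kif13b (0.0746). Without oocyte 3, it held for adam8a (0.0537), clip1 (0.0618) and kif13b (0.115).

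Whether the outer pair of segments (E minus A) differed by more than the inner pair (D minus B) was tested as the outer minus the inner difference. Of 10118 genes, 19 (0.188%) were called, 18 (0.178%) with a positive and 1 (0.00988%) with a negative value, and 428 had an unadjusted p under 0.05. For a gene that rises along the axis, a positive value means a larger rise from A to E than from B to D. The outer pair spans more of the axis, so an even rise or fall also gives a value away from 0. A steeper change at the end of the axis was therefore not tested. For slbp2 the log2 fold change was 5.86 ± 0.30 between E and A and 2.64 ± 0.29 between D and B, a difference of 3.22 ± 0.38 (edgeR adjusted p of 3.55e-05). Its mean level was 39.1 CPM in segment A and then 69.7, 193, 434 and 2268 CPM from B to E. For anln the values were 3.27 ± 0.25 and 1.06 ± 0.26, a difference of 2.22 ± 0.35 (edgeR adjusted p of 0.0028), with mean levels of 315, 346, 514, 719 and 3044 CPM from A to E. The negative value was that of exd2, which fell by 9.06 on the log2 scale between A and E and by 2.36 between B and D, a difference of -6.70 ± 0.84 (edgeR adjusted p of 4.86e-05). Segment E held 1, 6 and 13 reads of exd2 in oocytes 1, 3 and 4, so the sizes of its fall to E and of this difference rest on few reads. The number of calls depended on single libraries. It was 3 without segment D or E of oocyte 1, 6 without B of oocyte 2, 11 without A and 7 without D of oocyte 3, and 8 without E of oocyte 4.

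**Figure D5:**
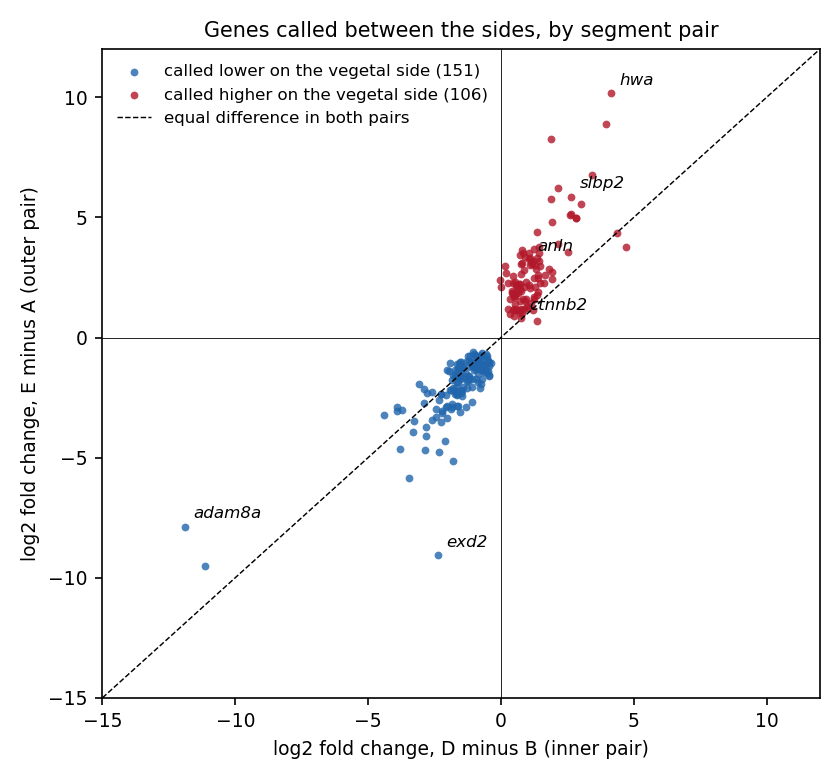
Each point is 1 of the 257 genes called between the sides, with the log2 fold change between D and B on the horizontal and between E and A on the vertical axis, and the dashed line marks equal differences. Most genes called higher lie above the line, as do slbp2 and anln, and exd2 lies far below it. Both axes come from the libraries that chose the genes, so the shared sign is no result.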

How the data were processed

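Zebrafish oocytes were embedded, cut in a cryostat and divided into segments, per the labels' protocols. Total RNA (5.5 ng) was depleted of ribosomal RNA with RiboCop and made into SENSE total RNA libraries. The submitters' processing notes name Trimmomatic, STAR 2.5.3a, HTSeq, DESeq2 and the build GRCz11, without role or order. Strand setting and annotation release are not given in the sources used here, and no positions are printed. The authors deposited a raw read count per gene and library. They also deposited a table of normalized signal, each library's counts divided by 1 factor, and multiplying back gave whole reads, equal to the deposited counts, for 100% of values.

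Ensembl genes alone were used (32520 in the tables, 29201 with a symbol). Spike-in and summary entries were left out of library sizes. Reads outside genes were 4.60% to 6.10%, reads with several alignments 6.88% to 14.2% and ambiguous reads 0.502% to 0.633% of all entries, so near-identical paralogs and overlapping or antisense genes are uncertain. At these depths 3 reads equal 0.127 to 0.740 CPM. Genes retained by filterByExpr (grouped by side, minimum count 10) held 99.09% of counts. The test was the 2-sided quasi-likelihood F-test of edgeR 4.0.16 (R 4.3.3) with TMM scaling and Benjamini-Hochberg adjustment over all genes tested, 7 animal against 6 vegetal libraries without a block. Fits with 1 coefficient per segment gave the pairs of segments. SEs were obtained from the log2 fold change and its F statistic. DESeq2 1.42.0, limma 3.58.1 on log2 of the authors' values plus a pseudocount of 1, other scalings and filters, the oocyte as a replicate block, sums per oocyte and side, and leaving out libraries or oocytes were alternatives. The code was tested on simulated data.

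Libraries of 1 oocyte are not independent, and p-values measure the spread between libraries of 4 oocytes. In the comparison of sides, which pools segments, this spread also includes differences between D and E and between A and B. The SEs of that comparison include them too. Same-numbered libraries come from the same oocyte by their labels, so the block pairs them. Deviations from the side means correlated at -0.00487, 0.113, -0.039 and 0.284 between the sides of oocytes 1 to 4 over 2692 well-expressed genes.

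Named genes were the 8 largest rises and 8 largest falls among called genes averaging 10 CPM or more with 1 direction in all 4 oocytes, and the 8 higher and 8 lower genes with the smallest p among those called in neither pair of segments. Up to 3 called members of each of 36 gene lists and the 3 smallest p-values for outer minus inner pair were added, 75 genes in all. Genes known by an identifier or clone name only were passed over. Of these, 1 gene is not reported here. Genes outside this rule were chosen after their values were seen. The comparison, lists and rules were chosen with earlier results of these data known. Symbols are printed in lower case as the table of gene names pairs them with identifiers, some as names of orthologs. Called genes that share a symbol with another tested entry are given with their identifier, except cnot4 (ENSDARG00000007639), fndc3b (ENSDARG00000078179), kmt2c (ENSDARG00000079312), sec61a1 (ENSDARG00000005675) and slc25a25 (ENSDARG00000010572). Their second entries were not called, at log2 fold changes of 0.40, 0.019, -3.70, -0.49 and 1.55. The same held for bmp1 (0.14), myh9 (1.01), prr12 (0.59), sap130 (0.34), eif4g3 (0.094), kdm5b (-0.83) and ldlrad4 (0.55).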

Additional observations from a re-analysis of the deposited data

Results flagged for a closer look

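In groups of 4 to 10 libraries, Dixon's criterion at 95% was applied to each named gene and side to find a library far from the others. Of 150 groups of values, 12 held such a library, and chance gives about 1 in 20 groups, or 7.5. On the animal side, segment B of oocyte 4 held 4.768 CPM of hwa against 0 to 1.178 in the other 6 libraries, and 17.01 CPM of dazl against 0.04395 to 3.783. Segment A of oocyte 4 held 111 CPM of fndc3b (others 9.746 to 32.53), 397.2 CPM of tent4b (others 123.8 to 237.4) and 155.8 CPM of rab40c (others 44.79 to 86.75). Segment A of oocyte 2 held 925.4 CPM of slc39a6 (others 395.9 to 610.9). On the vegetal side, segment E of oocyte 4 held 252.2 CPM of ldlrad4 (others 11.69 to 50.34) and 345.4 CPM of fndc3b (others 66.61 to 169.3). Segment E of oocyte 1 held 0.4416 CPM of adam8a, the level of 3 reads, where the other 5 libraries had 0, and it was low for rrbp1b at 111.7 CPM (others 237.2 to 289). Segment E of oocyte 3 held 167.9 CPM of slc39a6 (others 76.2 to 109.9), and segment D of oocyte 2 held 346.9 CPM of smurf1 (others 138.3 to 199.8). Each side pools 2 segments, so a library can stand apart by its place along the axis.

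The outer pair of segments differed from the inner pair for slbp2 by 3.219, for anln by 2.219 and for exd2 by -6.699 on the log2 scale, by the edgeR test of the difference itself. The value of exd2 rests on few reads in segment E.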

How the results depend on the processing

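Of the 75 named genes, 36 were called as reported and under all 29 alternatives, and 30 lost their call without oocyte 1, 21 without oocyte 2, 18 without oocyte 3, 13 without oocyte 4, 15 with the authors' factors and 12 without some single library. Leaving out oocyte 1 removed more libraries than leaving out any other oocyte, and the part of this in the lost calls was not tested. With the oocyte as a replicate block, 252 genes were called (109 higher, 143 lower), and of the named genes eif4g3, usp44 and slc25a25 lost their call. With the replicate block fitted on sums per oocyte and side, 229 genes were called and 12 of the named genes lost their call, these 3, ctnnb2, sap130, suco, eif4g1, cnot4, cnot6, cep152, rad52 and sec61a1. With the block on single libraries, other genes of the text that lost it were kif23, cep170b, fzd5 and srgap1b. No called gene changed sign under any setting. The causes of the changes below were not tested.

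The 257 calls became 414 with DESeq2 (177 higher, 237 lower) and 153 without oocyte 1 (67 higher, 86 lower). The number of lower genes was 80 with the authors' factors, 81 with those factors and the replicate block, and 100 with limma on the authors' values. Genes with all vegetal below all animal libraries numbered 70 with the authors' factors. Leaving out 1 library gave 216 to 266 calls between the sides (95 to 120 higher, 120 to 147 lower), 158 to 246 between E and A, 42 to 70 between D and B, and 3 to 19 for the outer minus the inner pair. RLE factors, library sizes alone, a minimum mean of 10 CPM, a filter of 1 read and sums per oocyte kept the counts between the sides within 1.5 times.

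Variation between libraries had a median biological coefficient of 0.862. This variation includes differences between the segments pooled on a side. With 3 reads equal to 0.127 to 0.740 CPM, levels near that floor rest on few reads.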

Other observations

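Gene pairs with 1 symbol, or with symbols alike apart from a final a, b, al, bl, aa, ab, ba or bb after a digit, were examined after the results were seen. The table of gene names gave the same symbol to both identifiers in 459 tested pairs. Neither was called in 428, 1 of them was called in 31, and in 0 pairs were both called by edgeR. Among all 1064 pairs, those alike apart from such an ending included, both were called in 5, of which 2 moved in the same and 3 in opposite directions. As 2.54% of all genes tested were called, few pairs of unrelated genes would have both called. The counts were not tested against pairs of unrelated genes, and some genes stand in several pairs. For want of such a test they are given as no result about paralogs. The deadenylase genes cnot6 and cnot6b and the kinase genes wnk1 (-2.24 ± 0.35, adjusted p 6.09e-05, edgeR) and wnk1a (-0.94 ± 0.23, adjusted p 0.0162) were lower on the vegetal side. In opposite directions, fbxw11 fell (-0.81 ± 0.19, adjusted p 0.0106, edgeR) and fbxw11a rose (3.11 ± 0.61, adjusted p 0.00141), both encoding F-box proteins that recognize phosphorylated beta-catenin. Neither is on the Wnt list. Levels of fbxw11 (ENSDARG00000017230) were 549.8 to 966 CPM (median 609) on the animal side and 296 to 505 CPM (median 385) on the vegetal side, and those of fbxw11a (ENSDARG00000104806) were 0.378 to 54.3 CPM (median 22.7) on the animal side and 80.0 to 444 CPM (median 188) on the vegetal side. The fall of fbxw11 was not called with the authors' factors (0.411).

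The cytoskeletal regulator micall2b (ENSDARG00000017834) had 819.8 to 1598 CPM (median 1000.4) on the animal side and 142 to 340.1 CPM (median 180.0) on the vegetal side, with a log2 fold change of -2.46 ± 0.23 (edgeR adjusted p 1.28e-08). Its relative micall2 (ENSDARG00000102366) had 390.2 to 717 CPM (median 559.9) on the animal side and 644 to 1216 CPM (median 846) on the vegetal side, with a log2 fold change of 0.76 ± 0.19 (edgeR adjusted p 0.0203). The kinase gene stk17al (ENSDARG00000015922) had 34.4 to 183 CPM (median 116) on the animal side and 273 to 1213 CPM (median 669) on the vegetal side, with a log2 fold change of 2.64 ± 0.32 (edgeR adjusted p 1.59e-06), whereas stk17b (ENSDARG00000014348) had 67.9 to 175 CPM (median 129.6) on the animal side and 0.361 to 41.6 CPM (median 12.5) on the vegetal side, with a log2 fold change of -3.10 ± 0.64 (edgeR adjusted p 0.00297). Reads with several alignments were not counted, and the part of this in the values of paralogs was not tested. Differences between the members of a pair were not tested.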
